A study of Mus musculus with 2 samples.

Results

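Low-ribosomal B droplets are barcodes of the spleen libraries that carry B cell transcripts but almost no ribosomal protein transcripts. A barcode was a member if it held at least 500 UMIs (unique molecular identifiers, each counting 1 captured transcript), at most 10% of them on mitochondrial genes, at least 1 UMI of Cd79a, Cd79b, Ms4a1 or Cd74, and no UMI of Cd3d, Cd3e or Cd3g. Fewer than 8% of its UMIs lay on the 97 genes whose symbols start with Rpl or Rps and a digit. This rule found 864 ALLO and 683 SYN barcodes, 1547 of the 28962 barcodes of the series. They made up 10.8% of the 8014 ALLO barcodes that met the same B cell rule at any ribosomal share (95% Clopper-Pearson interval 10.1 to 11.5, counting error only) and 6.05% of the 11289 SYN barcodes (5.62 to 6.51). Among all barcodes past the depth and mitochondrial limits the shares were 8.04% of 10750 (7.53 to 8.57) and 3.91% of 17469 (3.63 to 4.21).

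Spleen cells of wild-type C57BL/6 mice were profiled by droplet RNA sequencing of transcript 5′ ends (10x Genomics, version 2 of the 5′ kit). The ALLO recipients were grafted with skin of C57BL/6-Tg(HLAA2.1)1Enge/J donors, C57BL/6 mice that carry a human HLA transgene, at weeks 0 and 5. The SYN recipients were grafted by that procedure with wild-type C57BL/6 skin, and in both groups spleen cells were taken 4 weeks after the second graft, frozen, thawed and passed over a column that removes dead cells. Each group is 1 library, the labels do not say how many animals it holds, and what is compared below is therefore 2 libraries and not 2 treatments, with no test and no replicate spread.

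Messenger RNA is made in the nucleus and most of it is then exported to the cytoplasm, where ribosomes, the mRNAs of the translation machinery and the mRNAs of secreted and membrane proteins are found. Some long non-coding RNAs, such as Malat1 in nuclear speckles, Neat1 in paraspeckles and Kcnq1ot1 at its imprinted locus, remain in the nucleus, as do unspliced precursors. Mitochondrial transcripts are made and kept inside mitochondria, which lie in the cytoplasm.

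The ALLO library held 39476214 UMIs over 11185 barcodes and the SYN library 45435231 over 17777, with medians of 3113 and 2036 UMIs per barcode. The SYN library held 6510 barcodes under 1000 UMIs and the ALLO library 1259. Both shared 264 barcode sequences, none of them a member in both. The number and depth of barcodes thus differ between the libraries, and their part in the shares above was not tested.

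The ribosomal share of B barcodes had a small low peak apart from a broad main one. In the 2-point bins from 0 to 8% the ALLO library held 183, 506, 130 and 45 B barcodes, and the next bins, 8 to 10% and 10 to 12%, held 50 and 46 before the number rose again to 726 at 20 to 22%. The low peak therefore lay mostly under 6%. The 8% limit fell in the valley: the SYN library had 73 barcodes at 6 to 8% and 64 at 8 to 10%. Median Malat1 shares of the barcodes just inside and just outside the limit were 4.34% and 3.14% of UMIs in ALLO and 2.94% and 2.84% in SYN. The 10% mitochondrial limit, by contrast, fell inside a continuous population. It separated 223 ALLO barcodes at 8 to 10% mitochondrial UMIs from 133 at 10 to 12%, and 141 from 78 in SYN, and without it there would have been 1199 and 875 members.

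**Figure D1:**
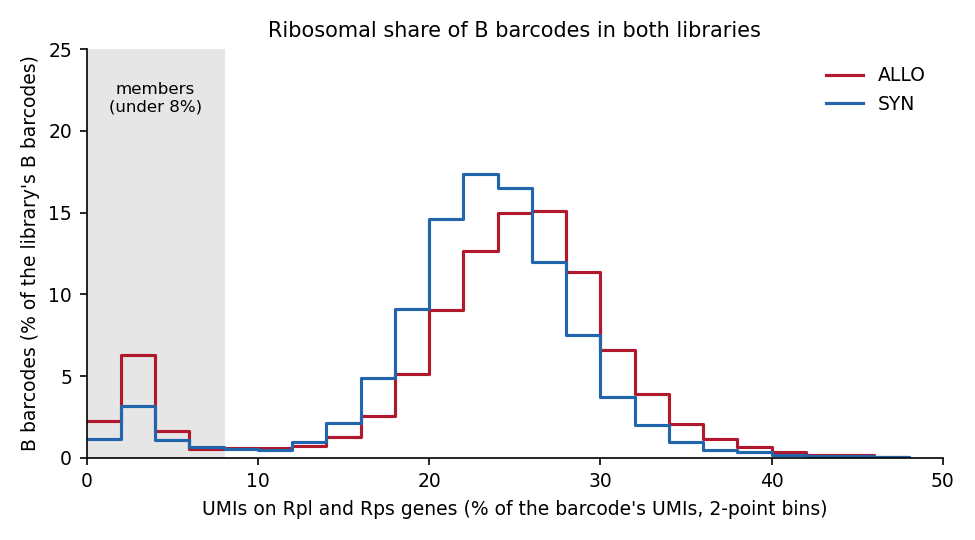
Share of each library's B barcodes (vertical axis, percent) by the share of the barcode's UMIs on Rpl and Rps genes (horizontal axis, bins of 2 percentage points), ALLO in red and SYN in blue. The shaded range under 8% holds the 864 ALLO and 683 SYN members, and the larger peak lies between 20 and 35%.

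The members were compared with the B barcodes of the main peak, defined by at least 2 UMIs of Cd79a and Cd79b and 20 to 35% ribosomal UMIs, 5931 in ALLO and 7471 in SYN. They held a median of 876.5 UMIs and 598 genes in ALLO and 804 UMIs and 537 genes in SYN, against 3203 and 1348, and 2681 and 1210, in the B barcodes. Ribosomal UMIs, which chose them, had medians of 2.71% and 2.98% against 26.1% and 24.7%. In molecules, that was a mean of 37.1 and 36.9 ribosomal UMIs per barcode against 992 and 725. The rest of the transcriptome was less reduced, at 1060 and 1016 UMIs per barcode against 2740 and 2081.

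Median shares of 2 other RNA classes were higher in the members. Malat1, the most abundant nuclear RNA here, took 4.52% and 4.47% of a member's UMIs and 0.891% and 0.915% of a B barcode's. Mitochondrial transcripts took 6.30% and 5.75% against 1.97% and 1.92%.

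The working label "nucleus-like" was set beside marker values. Its 4 marker genes, Kcnq1ot1, Macf1, Brwd1 and Nfat5, were chosen with the label, so their values are no check of it. They summed to 3292 and 3946 CPM in ALLO and SYN members and to 885.5 and 1050 in B barcodes. Here CPM is a gene's UMIs scaled to a total of 1000000 UMIs that are not on the Rpl and Rps genes, left out because they chose the members. Mitochondrial transcripts, which are not nuclear, were kept as well, so the droplets go by their rule and not by the name nucleus. The B identity also held only in part. No UMI of Cd79a or Cd79b, the signalling chains of the B cell receptor, was counted in 286 of the 864 ALLO and 245 of the 683 SYN members, which entered through Cd74 or Ms4a1. The 10 B cell markers, from Cd79a to Fcmr, summed to 7278 and 7074 CPM in members and 15061 and 15266 in B barcodes, and all 10 had UMIs in the members of both libraries.

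A minority of members carried transcripts of other cells at high level. The 8 neutrophil markers held 3557 UMIs in ALLO members, of which 10 barcodes held 3528, and 28406 in SYN members, where 49 barcodes had 10 or more such UMIs. That is 3885 and 40949 CPM against 9.7 and 100 in B barcodes. The 6 plasma cell markers were at 8792 and 4263 against 109 and 148, with 10 ALLO and 9 SYN barcodes of 10 or more UMIs. Haemoglobin markers held 835 and 1956 UMIs, with 2 and 4 barcodes of 10 or more, myeloid markers 135 and 1015, NK markers 223 and 81 and T cell markers 160 and 172. Dendritic cell markers held 38 and 67 and platelet markers 2 and 1. The rule, which asks for 1 UMI of a B cell gene such as Cd74, thus admitted barcodes with the transcripts of other cells.

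Many values are therefore given also for members with at least 2 UMIs of Cd79a and Cd79b and fewer than 2 UMIs of other cell types' markers, called clean droplets below. Values without that mention are for all members. There were 318 such droplets in ALLO (36.8% of members) and 220 in SYN (32.2%), and this subset was defined after the marker values had been seen. That choice left 8 and 3 neutrophil UMIs and no haemoglobin or platelet UMI. The B cell markers, which include Cd79a and Cd79b used in the choice, were at 11674 and 13155 CPM. B barcodes were not filtered for other cells' markers. Follicular markers such as Fcer2a and Ccr7 were at 2674 and 2336 in clean droplets and 2380 and 2369 in B barcodes, and marginal zone markers such as Cr2 and Cd1d1 at 1577 and 1529 against 1241 and 1250. Transitional markers, which include the short transcripts Vpreb3 and Cd24a, were at 191 and 272.5 against 871 and 933. The clean droplets thus carried the markers of both main splenic B cell subsets, and their B cell receptor genes included Cd79a by construction. Markers of B1 or memory B cells were at 311 and 464 CPM against 235 and 210, and dividing markers had 33 and 10 UMIs.

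Across all 11141 genes with at least 20 UMIs in each library over members and B barcodes, 1392 (12.5%) were at least 2-fold higher in CPM in members in both libraries and 1436 (12.9%) at least 2-fold lower. For 1197 of the higher and 1325 of the lower genes the exact Poisson interval of the ratio, which covers counting error only, lay beyond 1 in both libraries. Since the members were chosen by the ribosomal share of the same barcodes, these counts and every gene below are a description. The median gene was at a log2 ratio of 0.13 in ALLO and 0.11 in SYN. Medians of lists, and genes given as at a pair of values, are log2 ratios in ALLO and in SYN in that order unless called ratios or folds. In clean droplets 1664 of 11009 genes (15.1%) were higher and 1139 (10.3%) lower. The libraries resembled each other: over 10669 genes the log2 ratios of ALLO and SYN had a Pearson correlation of 0.782 and a Spearman correlation of 0.789, and 82.6% had the same sign. These points share the depth of each gene and its length, and no p is given.

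Counted per barcode and not in CPM, few genes kept their level. Only 783 genes (7.03%) had as many UMIs per member as per B barcode, or more, in both libraries, and 343 (3.08%) had fewer than 10% of them. The direction of a ratio of CPM thus does not say that a droplet held more molecules. The SYN B barcodes were shallower than the ALLO ones, with a lower quartile of 1055 UMIs against 2611. SYN values per barcode, as a percentage of B barcodes, are thus set against a lower reference, and depth was not matched for them.

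Nuclear long non-coding RNAs were among the groups with at least as many UMIs per droplet as per B barcode. Summed over the 20 genes of that list, members held 129% of the UMIs per barcode of B barcodes in ALLO and 164% in SYN, and clean droplets 134% and 162%. That sum was mostly Malat1: the list had 45.5 UMIs per ALLO member and 42.6 per SYN member, and Malat1 alone 44.1 and 41.1. Of the 11 genes with enough UMIs, 9 were past 2-fold higher in both libraries and none lower, with medians of 1.74 and 1.97 (log2), where all genes had 0.13 and 0.11. The 9 include Kcnq1ot1, a marker of the label. Malat1, a scaffold RNA of nuclear speckles, was counted 44.1 times per member and 34.2 times per B barcode in ALLO, and 41.1 and 25.2 times in SYN. Its level in CPM was 3.33-fold higher (3.29 to 3.37) and 3.35-fold higher (3.30 to 3.39). Malat1 molecules were thus as many or more per droplet although the droplets held far fewer UMIs, in SYN against the shallower B barcodes.

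Kcnq1ot1, the antisense RNA that silences an imprinted cluster, lies at chr7:143203458-143296549 (GRCm38, which is mm10) and was counted 427 times in ALLO and 362 times in SYN members. It had 0.49 UMIs per member and 0.27 per B barcode in ALLO, and 0.53 and 0.21 in SYN, or 4.79-fold (4.30 to 5.34) and 5.16-fold (4.59 to 5.79) higher in CPM. Neat1, the paraspeckle scaffold, was 4.23-fold (3.76 to 4.75) and 3.96-fold (3.47 to 4.51) higher. The other genes past the fold were rarer. Log2 ratios in ALLO and SYN were 1.74 and 2.02 for Dleu2, 1.77 and 1.76 for Tug1, 1.65 and 1.97 for Pvt1 and 2.01 and 2.18 for Jpx, an activator of X inactivation. The microRNA precursors Mir142hg and Mir17hg were at 1.17 and 2.36, and 1.45 and 1.28. Ftx stood at 1.25 and 0.82 and did not pass in SYN. Xist had no UMI in the members.

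The 4 marker genes of the label were higher in both libraries, as their choice implies. Macf1, a giant protein that links actin to microtubules (chr4:123349633-123684360), had 1893 and 1824 UMIs, or 2.19 per ALLO member against 1.5 per B barcode and 2.67 per SYN member against 1.42. It was 3.78-fold (3.59 to 3.97) and 3.85-fold (3.66 to 4.04) higher in CPM. Brwd1, a bromodomain protein that guides light chain recombination in developing B cells, had 0.45 against 0.44 and 0.51 against 0.38 UMIs per barcode and ratios of 2.69 (2.41 to 2.99) and 2.79 (2.49 to 3.12). Nfat5, the transcription factor of the osmotic stress response, had 0.35 against 0.22 and 0.29 against 0.18 UMIs per barcode and ratios of 4.04 (3.55 to 4.58) and 3.42 (2.93 to 3.97). Each of the 4 thus had at least as many UMIs per droplet as per B barcode.

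Large genes of chromatin and of the ubiquitin and vesicle machinery had UMIs per barcode near or above those of B barcodes. The 39 chromatin regulators had a median log2 ratio of 1.12 and 1.03, with 18 past 2-fold higher and none lower, and kept 83.0% and 99.5% of their UMIs per barcode. Kmt2a, a histone H3 lysine 4 methyltransferase, was at 1.62 in both libraries, Nsd1, a lysine 36 methyltransferase, at 1.52 and 1.73, Phip at 1.51 and 1.39, and the co-regulator Ankrd11 at 1.02 and 0.85. Of the 24 very large proteins of ubiquitin transfer, vesicle traffic and the cytoskeleton, 23 had enough UMIs and 18 were past the fold, with medians of 1.27 and 1.44 and 108% and 140% of the UMIs per barcode. Among them were the ubiquitin ligases Mycbp2 (1.47 and 1.44) and Birc6 (1.44 and 1.49) and the Rac activators Dock2 (1.18 and 1.11) and Dock10 (1.10 and 1.08). In clean droplets 27 chromatin genes and 19 of the very large ones were past the fold, so that both counts were higher there than among all members. Brwd1 in the chromatin list and Macf1 in the other are markers of the label. Both count among the genes past the fold in all members and in clean droplets.

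Splicing and speckle factors took a middle place, with 7 of 32 past the fold, medians of 0.56 and 0.66, and 54.6% and 65.5% of their UMIs per barcode. Srrm2, the organiser of speckles, was at 1.04 and 1.02 and Luc7l2 at 1.25 and 0.85. The helicase Ddx5 was at -0.28 and -0.35 and Rbm39 at 0.11 and -0.31. In clean droplets 12 of the 32 were past the fold, with medians of 0.85 and 0.92. The 13 host genes of small nucleolar RNAs, whose spliced transcripts are exported and degraded on ribosomes, lay on the other side of 0. None was past 2-fold higher and 5 were past 2-fold lower, with medians of -0.88 and -1.09. Gas5 was at -0.99 and -1.19, Snhg1 at -0.71 and -1.09, Snhg8 at -1.69 and -1.76 and Zfas1 at -1.40 and -1.07. In clean droplets 3 of the 13 were past 2-fold lower and none higher, with medians of -0.82 and -0.47. Non-coding transcripts as such were therefore not kept: the list of nuclear ones was higher and the list of host genes lower.

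Transcripts that the annotation places within an intron of a gene had the highest ratios of any annotated gene type compared. Of the 39 sense-intronic genes tested, 29 (74.4%) were past 2-fold higher and none lower, with a median log2 ratio of 2.32 in both libraries. The 243 lincRNA genes had medians of 0.37 and 0.37, with 49 higher and 13 lower. The annotation gives protein-coding hosts on the same strand, and for 38 of the sense-intronic genes the host also had a ratio. Of these 38, 31 had a higher ratio than their host in both libraries. The median of those 38 was 2.32 and 2.35 and that of their hosts 0.89 and 0.73. A separate transcript and unspliced RNA of the host give the same reads in these places and cannot be told apart. In clean droplets 26 of 37 sense-intronic genes tested were past 2-fold higher and none lower, with medians of 2.35 and 2.75.

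The intronic transcripts and their hosts could lie on opposite sides. Gm47828 lies at chr9:51215733-51219521 in an intron of Pou2af1, a B cell coactivator of octamer factors, and had 24 and 21 UMIs in members, a ratio of 5.92 (3.56 to 9.50) in ALLO and 7.47 (4.33 to 12.4) in SYN. The UMIs counted for Pou2af1 itself were at a log2 ratio of -0.75 and -0.99. Another 4 such genes lie in Rap1a, a small GTPase of integrin signalling. Among them Gm43329, at chr3:105766966-105770197, had 29 and 27 UMIs and ratios of 6.60 (4.15 to 10.2) and 8.29 (5.12 to 13.0), with Rap1a at -0.67 and -0.91. Gm47664, in Elmo1 at chr13:20499888-20501227, had the most UMIs of the class, 75 and 49, and ratios of 6.86 (5.18 to 9.0) and 5.81 (4.15 to 7.99), with Elmo1 at 1.36 and 1.19.

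The mRNAs of the translation machinery had the lowest medians of the 20 lists among all members, whereas in clean droplets, at -2.32 and -2.23, they lay above the nuclear-encoded respiratory chain at -2.70 and -2.78. Members kept 6.27% and 8.90% of their UMIs per barcode, and 19 of the 21 genes were past 2-fold lower and none higher, with medians of -2.44 and -2.40. These genes are no part of the ribosomal share that chose the members, but like ribosomal protein mRNAs most carry a 5′ oligopyrimidine tract that ties their translation to growth signals. Eef1a1, the elongation factor that delivers tRNAs, fell from 25 UMIs per B barcode to 1.63 per member in ALLO and from 19.6 to 1.82 in SYN. Its log2 ratios were -2.57 and -2.40. Fau, whose product is cut into a small-subunit protein, was at -3.40 and -2.73 and Tpt1, translationally controlled tumour protein, at -2.99 and -3.03. The 2 genes short of 2-fold included Pabpc1, the cytoplasmic poly(A)-binding protein, at -0.73 and -0.84.

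Ribosomal protein genes outside the symbol rule showed the same depletion. Rplp1, of the acidic stalk, fell from 16.5 to 0.569 UMIs per barcode in ALLO and from 11.9 to 0.53 in SYN, or 11.2-fold and 11.0-fold lower in CPM. Rplp0 was 8.72-fold and 9.99-fold lower and Rpsa 8.52-fold and 8.43-fold. These genes encode subunits of the same particle as the genes that chose the members.

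Nuclear and mitochondrial genes of the respiratory chain parted. Of the 69 nuclear-encoded subunits, 67 were past 2-fold lower and none higher, with medians of -2.33 and -1.98 and 7.69% and 12.2% of the UMIs per barcode. Atp5e was at -3.20 and -2.29, Cox8a at -3.00 and -2.39, Cox4i1 at -2.76 and -1.92 and the largest of the ATP synthase subunits, Atp5a1 and Atp5b, at -1.11 and -1.37 and at -1.66 and -1.60. The 13 mitochondrially encoded genes went the other way, with medians of 1.01 and 0.86 in CPM, and members held 78.9% and 89.5% of the UMIs per barcode. mt-Co1, the catalytic subunit of cytochrome oxidase, was counted 12 times per ALLO member and 15.5 times per B barcode, and 10.1 and 11.5 times in SYN. None of the 13 was past the fold in both libraries, whereas in clean droplets 11 were, with medians of 1.24 and 1.15. The same enzymes were thus represented by most of their mitochondrial and few of their nuclear transcripts. The mitochondrial limit of the rule bounds these values from above.

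**Figure D2:**
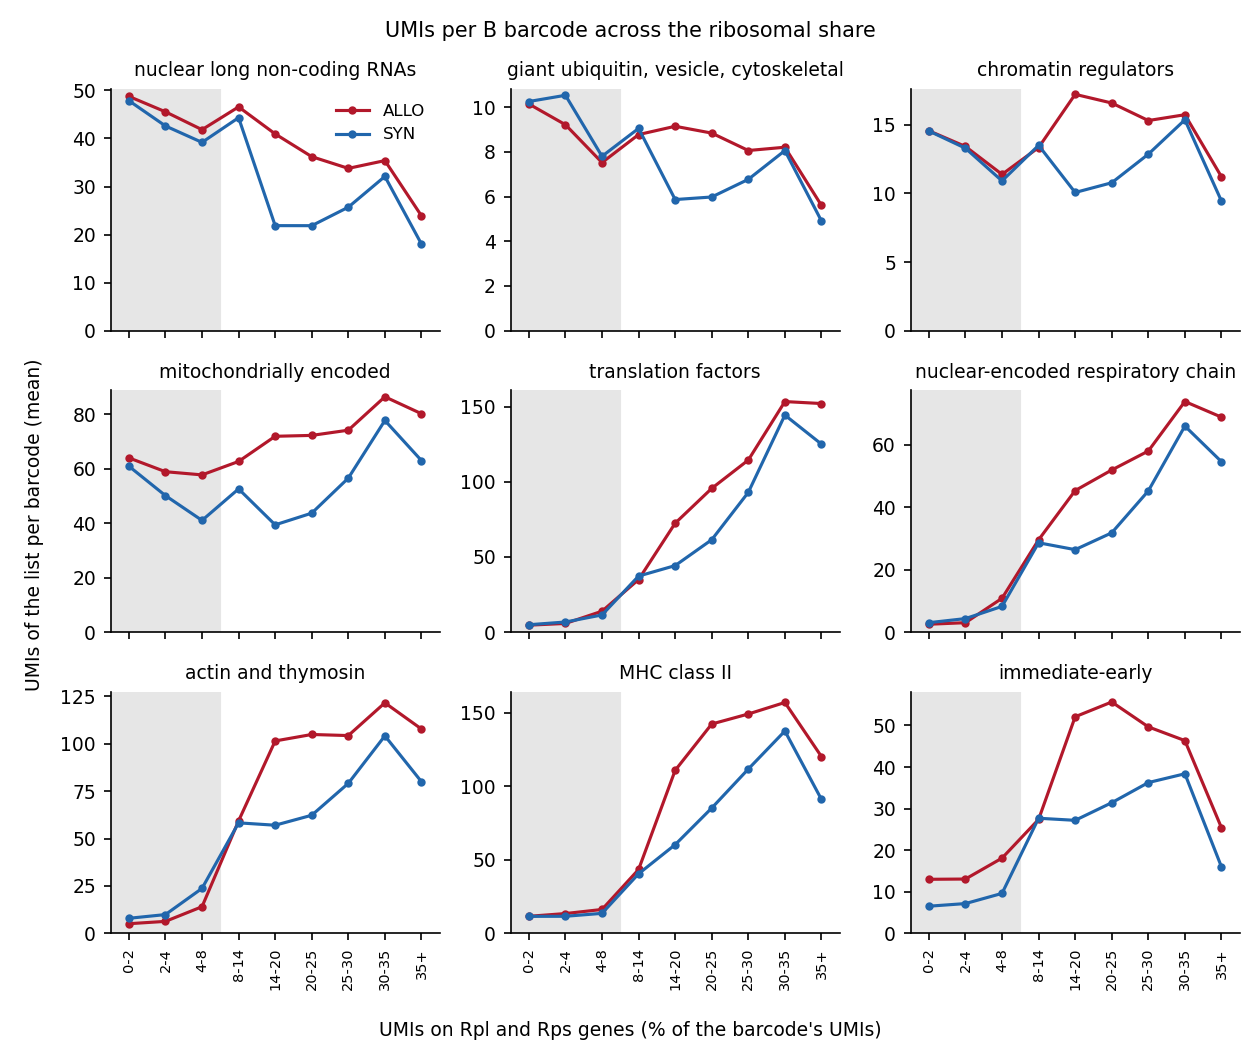
Mean UMIs per B barcode of 9 gene lists (vertical axes) by ribosomal share in bins (horizontal axis, percent of the barcode's UMIs), ALLO in red and SYN in blue, members shaded. Nuclear long non-coding RNAs are higher in the shaded range than at 20 to 35%, whereas translation factors and nuclear-encoded respiratory chain genes fall from over 60 and over 30 UMIs at 20 to 25% to under 7 and under 5 below 4%. Most UMIs of the nuclear long non-coding RNA list are those of Malat1.

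Across the ribosomal share the RNA classes moved apart in the same way in both libraries. Nuclear long non-coding RNAs were counted 48.8 times per ALLO barcode at 0 to 2% ribosomal UMIs, 41.8 times at 4 to 8%, 46.6 times at 8 to 14% and 33.8 times at 25 to 30%. In SYN the values were 47.9, 39.2, 44.3 and 25.7. Malat1 alone had 47.3, 40.5, 45.5 and 32.9 UMIs in these ALLO bins and 46.1, 37.7, 42.8 and 24.9 in SYN. Translation factors were counted 4.57, 13.9, 35 and 115 times in the same ALLO bins and 4.86, 11.4, 37.3 and 93.1 times in SYN. Barcodes at 8 to 14%, 154 in ALLO and 230 in SYN, thus had intermediate numbers of translation factor UMIs at an unreduced number of nuclear RNAs. The bin at 14 to 20% in SYN held shallow barcodes, with a median of 890 UMIs, and only 21.9 nuclear RNA UMIs.

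Actin and its partners were also depleted. Of 18 genes, 14 were past 2-fold lower and none higher, with medians of -2.17 in ALLO and -1.26 in SYN. Tmsb4x, the main actin-sequestering peptide, was at -3.11 and -1.24, Tmsb10 at -3.22 and -2.82, Pfn1, profilin, at -2.49 and -1.61 and Actb at -2.25 and -1.29. The smaller SYN difference stood beside the neutrophil transcripts of that library. In clean droplets the list was at -1.93 and -2.08, with 17 genes past the fold, and Tmsb4x at -3.31 and -3.17.

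Most antigen presentation genes of class II were depleted. Cd74, the invariant chain, which the rule used, fell from 87.0 to 7.17 UMIs per barcode in ALLO and from 65.8 to 6.75 in SYN. H2-Aa was at -2.26 and -2.34, H2-Eb1 at -1.92 and -2.02 and H2-Ab1 at -1.90 and -1.94, and 7 of 10 genes were past 2-fold lower, and 6 of 10 in clean droplets. H2-Ob and H2-DMb1, at -0.78 and -0.94 and at -0.72 and -0.90, did not pass. Ciita, the long transactivator gene that switches the others on, was at 0.68 and 0.77, and in clean droplets at 0.98 and 1.29. Of the 8 class I genes only B2m, the light chain, was past the fold (-1.77 and -1.59), with H2-K1 at -0.68 and -0.75 and H2-D1 at -1.11 and -0.76. Members held 9.18% and 11.2% of the class II and 19.7% and 27.1% of the class I UMIs of a B barcode. In clean droplets, which were chosen for Cd79 UMIs, class II genes had medians of -1.19 and -1.18.

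B cell receptor and signalling genes held both kinds. Of 27, 1 was past 2-fold higher and 7 lower, with medians of -0.15 and -0.10. Scaled to all UMIs, ribosomal ones included, the median of all genes was 0.53 and 0.49 and that of this list turned positive, at 0.25 in the library nearer 0. Ptprc, the long gene of the CD45 phosphatase, was the higher one, at 1.27 and 1.2. Cd22, an inhibitory lectin receptor, was at 0.60 and 0.80, Cr2, the complement receptor, at 0.87 and 0.74, and the scaffold Bank1 at 0.52 and 0.47. Fcmr, the Fc receptor for IgM, was at -2.07 and -2.03, Cd40 at -1.37 and -1.54, and Cd79a, which the rule used, at -2.47 and -2.43. Clean droplets gave 3 higher and 2 lower genes and medians of 0.43 and 0.32, with Cd22 at 1.15 and 1.58.

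Transcription factors of the B lineage were mostly near or above 0, with a median of 0.55 and 0.14 over 26 genes. Bach2, which holds back plasma cell differentiation, was at 1.15 and 0.63, Aff3 at 0.99 and 0.86, Foxp1 at 0.71 and 0.55, Ets1 at 0.75 and 0.51, Pax5 at 0.36 and 0.18 and Ebf1 at 0.27 and 0.08. Irf8, Spib and Klf2, a regulator of lymphocyte migration, were the 3 past 2-fold lower, at -1.25 and -1.05, -1.10 and -1.26, and -1.49 and -1.58. Nfat5, a marker of the label, was the 1 past 2-fold higher. Per barcode the list kept 47.5% and 52.0% of its UMIs. In clean droplets 7 of the 26 were past 2-fold higher and 1 lower, with medians of 0.89 and 0.57, and the list took 1.62% and 1.53% of non-ribosomal UMIs against 1.06% and 1.05% in B barcodes.

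Immunoglobulin constant genes differed among themselves. Of 9 compared, 1 was past 2-fold higher and 2 lower, with medians of 0.01 and 0.15. Igha, the higher one, had 4.16 UMIs per ALLO member and 0.10 per B barcode, a log2 ratio of 6.78, and 6.09 in SYN. Igkc was at 1.15 and 0.15 and Ighm at 0.97 and 0.29, whereas the lambda genes Iglc2 and Iglc3 were the lower ones, at -2.12 and -2.56 and at -2.26 and -3.16. Plasma cell markers were high in the same members. In clean droplets, where selection against those markers left 25 and 13 of their UMIs, none was past 2-fold higher and 5 were lower. There Igha was at -1.47 in ALLO and had no UMI in SYN, Igkc at -1.95 and -1.74 and Ighm, which B cells carry as a receptor, at -0.12 and 0.32. The endoplasmic reticulum list, 27 genes, had medians of -0.33 and -0.65, with 2 past 2-fold higher and 5 lower. Its transcription factor Xbp1 was at 1.60 in both libraries among all members and at -0.67 and -0.48 in clean droplets, whereas the short translocon subunit Sec61b was lower in both sets, at -1.42 and -1.89 and at -3.64 and -4.19.

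The remaining stress lists were not shifted past 2-fold in both libraries. The 12 genes of the p53 and survival list had medians of 0.35 and 0.90 among all members, and of 0.03 and -0.11 in clean droplets, with 2 past 2-fold higher and 1 lower in each set. Among all members Trp53inp1 was at 1.79 and 1.73, Bcl2, a survival factor, at 0.91 and 0.88, Mdm2 at 0.56 and 0.92, Mcl1 at -0.03 and 0.22 and Bax, a pore-forming death effector, at -1.49 and -1.90. Immediate-early genes, with 1 of 23 past 2-fold higher and 4 lower, had medians of -0.18 in ALLO and -1.13 in SYN. Heat shock genes, with 4 of 10 lower, had medians of -0.97 and -0.95. In clean droplets immediate-early genes had medians of -0.32 and -1.19, with 3 of 23 lower. Heat shock genes had -0.90 and -1.57 there, with 1 of 10 lower.

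**Figure D3:**
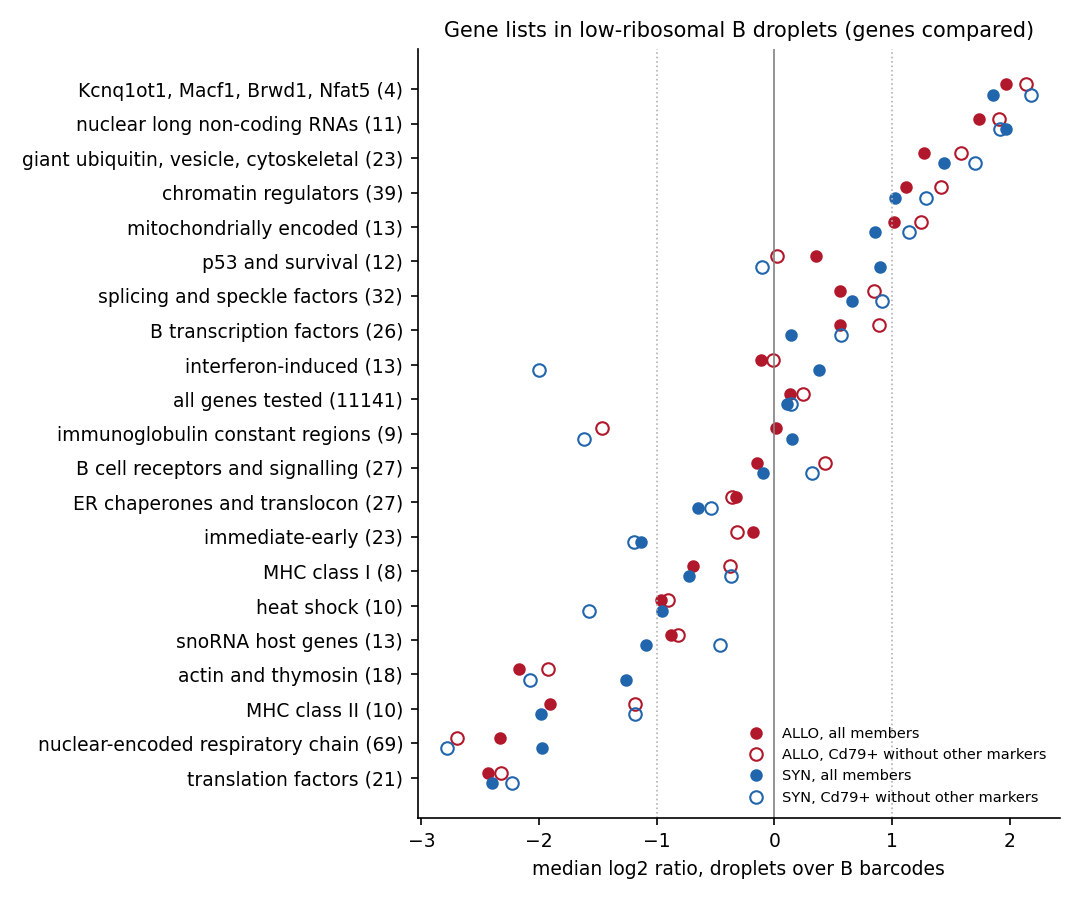
Median log2 ratio of members over B barcodes (horizontal axis, CPM of members over CPM of B barcodes) for 20 gene lists and all genes tested, ALLO red and SYN blue, filled for all members and open for clean droplets (Cd79+ without other markers); the number of genes compared stands in brackets and dotted lines mark 2-fold. Nuclear long non-coding RNAs and very large genes lie right of 1 and translation, respiratory chain, class II and actin genes left of -1 in each of the 4 point sets.

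Transcript length ordered the ratios. Among 875 genes whose longest annotated transcript has at most 1000 bases, the median log2 ratio was -1.62 in ALLO and -1.49 in SYN, and 41.9% were past 2-fold lower and 6.29% higher. The genes ordered by length include 192 immunoglobulin variable segments, 84 of them past 2-fold lower. Their median annotated length, 359 bases, is that of the segment and not of the whole mRNA. The order without them was not computed. At 3000 to 4000 bases the medians were 0.17 and 0.15. Among the 567 genes over 8000 bases they were 1.21 and 1.17, with 54.3% past 2-fold higher and 0.353% lower. Clean droplets spread further, from -2.07 and -2.33 in the shortest to 1.37 and 1.39 in the longest class. Each step of length in between gave a higher median in both libraries and in both sets.

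The order by length held within levels of expression and was joined by the length of the gene in the genome. In the third of genes with the highest level in B barcodes, 77.0% of those up to 1000 bases were past 2-fold lower and 49.6% of those over 8000 bases higher. In the third with the lowest level the medians ran from -0.37 and -0.42 to 1.37 and 1.5. Among transcripts of 2000 to 4000 bases, genes that span at most 10000 bases had medians of -0.44 and -0.43, those of 10000 to 50000 bases -0.05 and -0.04, and longer ones 0.46 and 0.38. Transcript length within that class was not matched between the groups of span. Protein-coding genes made up 10116 of the 11141 genes compared.

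**Figure D4:**
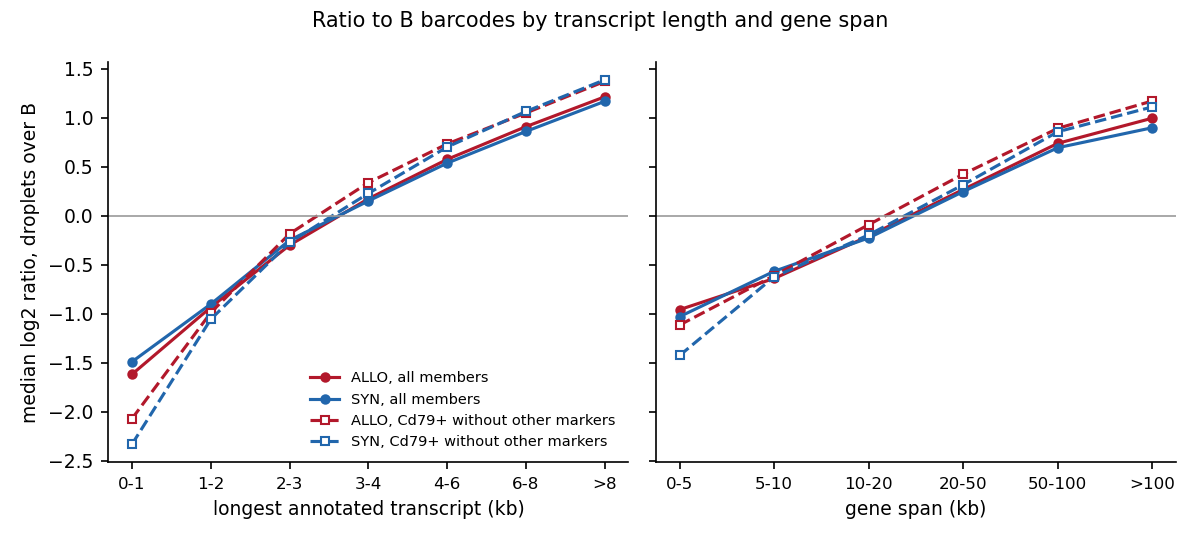
Median log2 ratio of members over B barcodes (vertical axis) by longest annotated transcript (left, kilobases) and by the span of the gene in the genome (right, kilobases), ALLO red and SYN blue, filled circles for all members and open squares for clean droplets. All 4 lines rise across the transcript classes from between -2.33 and -1.49 to between 1.17 and 1.39.

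The single genes with the largest ratios depended on which members were taken. Ranked by the interval bound nearest to 1 in the library where it was smaller, the 15 highest genes of all members were genes of neutrophils, plasma cells, red cells and other granulocytes. S100a8, a neutrophil calcium-binding protein, had 1302 and 10583 UMIs in members and ratios of 642 (461 to 920) and 395 (364 to 429), and Jchain, the joining chain of secreted IgA and IgM, had 7820 and 2840 UMIs and ratios of 304 (276 to 334) and 80.7 (74.5 to 87.4). The others were S100a9, Ngp, Camp, Lcn2, Il1b, Ltf, Retnlg, Prg2, Chil3, Slpi, Hbb-bs, Hba-a1 and Hba-a2. They rest on the small number of barcodes described above. S100a8, S100a9, Jchain and the haemoglobin genes are among the markers that clean droplets were selected against.

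In clean droplets the same ranking gave other genes, most of them with long annotated transcripts. After Kcnq1ot1, with ratios of 5.79 (4.92 to 6.77) and 5.94 (4.88 to 7.16), came the zinc finger gene Zbtb37 with ratios, not on the log2 scale, of 6.85 and 7.36, Ermard, whose longest transcript has 2535 bases, at 6.58 and 7.28, Macf1 at 4.33 (4.01 to 4.67) and 5.13 (4.75 to 5.54), and the splicing factor Prpf39 at 5.09 and 5.27. Ccnt2, a cyclin of the elongation factor P-TEFb, was at 4.42 and 4.67, the E protein Tcf12 at 4.24 and 4.53, the ubiquitin ligases Huwe1 and Rnf111 at 4.13 and 4.00 and at 4.04 and 4.10, and the formin Diaph2 at 4.78 and 6.14. Malat1, Ralgapa2 and Grk5 also ranked here, and Rpgrip1l and Cd46 rest on 10 and 8 and on 8 and 6 UMIs.

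Most of the lowest genes were short. Besides Rplp0, Rplp1, Rplp2 and Rpsa they included, among all members, Fau (10.6-fold and 6.62-fold lower), Tpt1 (7.96-fold and 8.15-fold), the surface protein Ly6d (9.48-fold and 7.57-fold), Vpreb3, a chaperone of the B cell receptor (9.57-fold and 13.4-fold), and S100a10 (9.67-fold and 8.90-fold). Tmsb10, Eef1b2, Nme2 and Atp5g2 were others of that kind. Longer annotated transcripts among them were those of Rack1, a ribosome-bound scaffold (4456 bases), and Pmf1 (2346 bases), which were 7.58-fold and 7.21-fold, and 10.9-fold and 13.5-fold, lower. In clean droplets they included Cd52, a short surface glycoprotein (8.80-fold and 8.48-fold), Snrpe, a core protein of spliceosomal particles (10.3-fold and 14.3-fold), Sec61b (12.5-fold and 18.2-fold) and Ifi27l2a, an interferon-induced gene (21.7-fold and 19.7-fold, on 8 and 4 UMIs).

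Low-ribosomal droplets were also found among T cells. Among barcodes with a Cd3 UMI and none of Cd79a, Cd79b or Ms4a1, 102 of 1606 in ALLO (6.35%, 5.21 to 7.66) and 107 of 2515 in SYN (4.25%, 3.50 to 5.12) lay under 8% ribosomal UMIs. Set against T barcodes at 20 to 35%, 894 of 8854 genes (10.1%) were higher and 910 (10.3%) lower. Of these, 443 higher genes were also higher in the B droplets, 31.8% of the B list, 44.1% of its 1004 genes that could be compared in T, and 49.6% of the T list. The 629 genes lower in both were 43.8% of the B list, 50.2% of its 1252 comparable genes and 69.1% of the T list. The T droplets, like the B droplets, held a few barcodes with other cells' transcripts. Neutrophil markers were at 65351 CPM in ALLO and 36592 in SYN, with 2 and 7 barcodes of 10 or more such UMIs, NK markers at 1184 and 116 CPM and haemoglobin markers at 16.6 and 2803. Their part in the shared genes and in the list values was not tested. Nuclear long non-coding RNAs had medians of 2.0 and 1.87 in T droplets, chromatin regulators 0.93 and 1.16, translation factors -2.77 and -2.59 and the nuclear respiratory chain -1.96 and -2.34. The class II list, depleted in B droplets, was at 1.12 and -0.05 in T droplets, with none of its 8 genes past the fold in both libraries.

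The ALLO and SYN members were then set against each other, with the same ratio in B barcodes beside it. Of 8216 genes with at least 20 UMIs over both libraries together, 254 (3.09%) were at least 2-fold higher and 527 (6.41%) at least 2-fold lower in ALLO members, and the median was -0.05. A gene could meet that minimum through the library where it was high. In B barcodes the numbers were 107 (0.885%) and 266 (2.2%) of 12095, and in clean droplets 222 (4.63%) and 158 (3.29%) of 4799. The members hold fewer UMIs than the B barcodes, and counting error widens their ratios.

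Immediate-early genes, which B cells transcribe within minutes of stimulation, were higher in ALLO members than in SYN members. The list median was 0.68 (log2), with 7 of 22 genes past 2-fold higher and none lower, against 0.14 in B barcodes with 1 of 23. In clean droplets the median was 1.06, with 11 of 20 past the fold. Fosb, a subunit of the AP-1 factor, had 1478 UMIs in ALLO and 416 in SYN members, a ratio of 2.69 (2.41 to 3.01), and of 1.07 in B barcodes. Jun, its partner, had 1455 and 423 UMIs, a ratio of 2.61 (2.34 to 2.91) and of 1.10 in B barcodes. Cd69, the early surface marker that keeps lymphocytes in tissue, had 1002 and 199 UMIs, a ratio of 3.81 (3.27 to 4.46), of 3.07 (2.39 to 3.99) in clean droplets and of 1.30 in B barcodes. For these genes the ratio of the libraries was larger in the droplets than in B barcodes, a difference that was not tested.

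Other genes of the response differed in size and Dusp1 in direction. Egr3 had 163 and 35 UMIs, a ratio of 3.53 (2.44 to 5.24) and of 1.35 in B barcodes, Myc 87 and 24 UMIs and a ratio of 2.75 (1.73 to 4.51), and Fos 1231 and 544 UMIs and a ratio of 1.71 (1.55 to 1.90). Dusp1, a phosphatase that ends MAP kinase signals, had 317 and 312 UMIs, a ratio of 0.77 (0.66 to 0.90) among all members and of 2.16 in clean droplets. Members held a median of 12 UMIs of the list in ALLO and 2 in SYN, against 48 and 33 in B barcodes. The 10% of members with the most, 86 and 68 barcodes, held 32.3% and 53.8% of those UMIs, and in clean droplets 29.6% and 38.3%. Low-ribosomal T droplets had a list median of 0.17 over 15 genes.

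**Figure D5:**
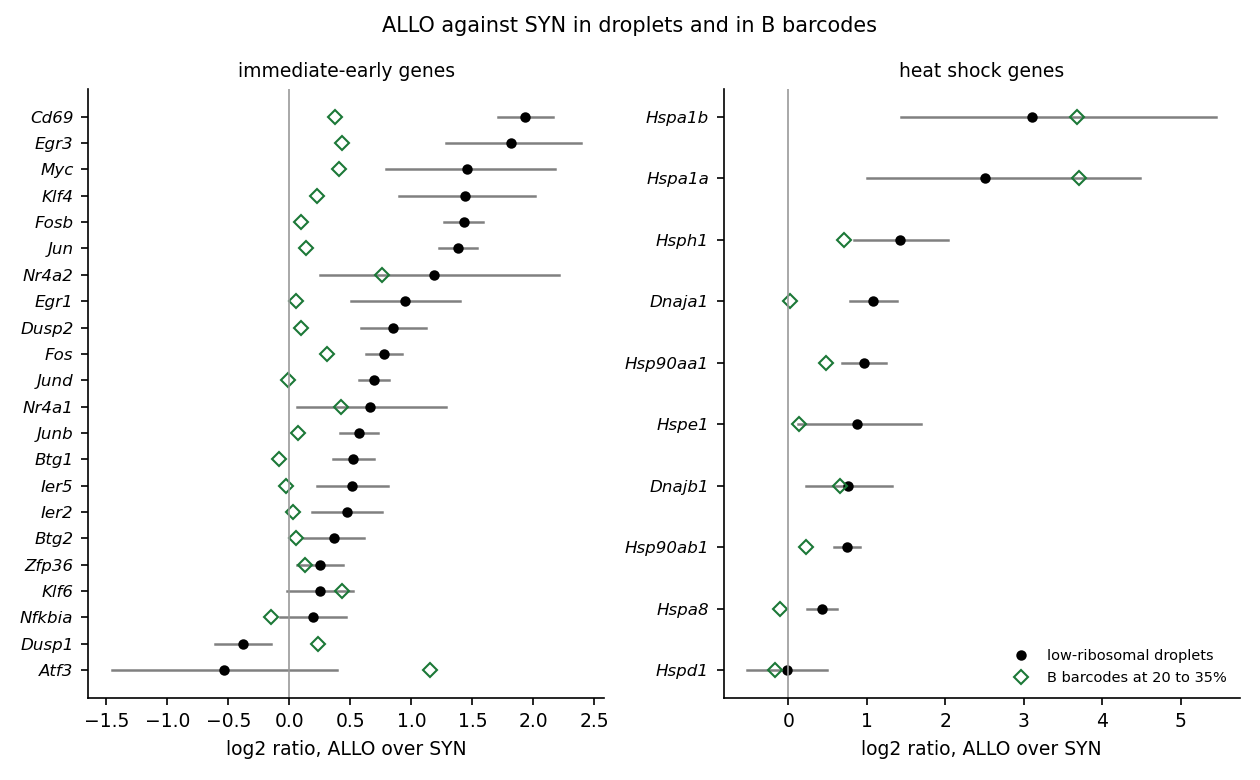
Log2 ratio of ALLO over SYN (horizontal axes) for immediate-early genes (left) and heat shock genes (right), black points for members with exact Poisson intervals (counting error only) and green diamonds for B barcodes at 20 to 35% ribosomal UMIs. Cd69, Egr3, Fosb and Jun lie above 1 in members and under 0.5 in B barcodes, whereas Hspa1a and Hspa1b are at least as high in B barcodes.

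Heat shock genes were higher in ALLO members too, with a median of 0.92 and 4 of 10 genes past 2-fold, and a median of 0.48 and 3 of 11 in B barcodes. Dnaja1, a co-chaperone, had 351 and 126 UMIs, a ratio of 2.11 (1.72 to 2.61) and of 1.01 in B barcodes, and Hsph1 113 and 32 UMIs and a ratio of 2.68, with 1.64 in B barcodes. The near-identical pair Hspa1a and Hspa1b, between which reads can be split, had 30 and 4 and 34 and 3 UMIs, and ratios of 5.68 and 8.59 against 13.0 and 12.8 in B barcodes. Dnaja1 thus differed between the libraries in the droplets and was near 1 in B barcodes, and Hspa1a and Hspa1b had the larger ratios in B barcodes.

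The 8 genes with the largest ALLO excess were Cd69, Gzma, Gla, Gch1, Mzb1, Egr3, Fosb and Tnfaip3. Tnfaip3, the NF-kB feedback inhibitor A20, had 176 and 40 UMIs, a ratio of 3.33 (2.35 to 4.83), of 7.83 (3.18 to 25) in clean droplets and of 1.06 in B barcodes. Gch1, the first enzyme of tetrahydrobiopterin synthesis, had 268 and 59 UMIs and a ratio of 3.44 (2.59 to 4.64), and Gla, a lysosomal galactosidase, 76 and 12 UMIs and a ratio of 4.80 (2.59 to 9.69), with 1.23 and 1.57 in B barcodes. Gzma, a granzyme of NK and T cells, and Mzb1, a plasma cell and marginal zone protein, had ratios of 4.32 and 3.29 among all members. In clean droplets Gzma, a marker they were selected against, had 2 UMIs in each library, too few to give a direction. Mzb1, which is not among those markers, had 22 and 29 UMIs there and a ratio of 0.487 (0.266 to 0.877). Cd83, an activation marker and a stabiliser of class II, had 532 and 166 UMIs and ratios of 2.43 among all members, 2.96 in clean droplets and 1.21 in B barcodes.

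The 8 genes with the largest SYN excess, Mt1, Retnlg, Lyz2, Chil3, Ccl6, Hp, Il1b and Ltf, are a metallothionein and genes of neutrophils and macrophages. Retnlg had 30 UMIs in ALLO and 560 in SYN members, Lyz2 64 and 937, and Mt1 1 and 93. In clean droplets, which were selected against markers that include Retnlg, Lyz2 and Ltf, none of the 8 had more than 2 UMIs in either library. The genes lower in ALLO clean droplets were of another kind and differed less. Macf1 had a ratio of 0.676 (0.608 to 0.751), with 0.801 in B barcodes, Ahnak, a giant scaffold, 0.502, the ubiquitin ligase Shprh 0.422, the adaptor Sla 0.442 and the Hippo kinase Lats1 0.44. Malat1 was at 41587 CPM in ALLO and 40456 CPM in SYN members, and the median of the nuclear list between the libraries was -0.09 over 10 genes, with none past 2-fold higher and 1 lower.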

How the data were processed

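Members and gene lists were chosen with earlier results of these data known. The deposited files hold whole-number UMI counts per gene and barcode, not normalized, per the file headers. The submitters' processing notes name Cell Ranger 6.0.2, FastQC and the mm10 build. Whether introns were counted, and from which annotation, is not given in the sources used here. Counting introns could raise long genes, and whether it would do so alike in members and B barcodes was not tested. The files hold no barcode under 500 UMIs.

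UMIs were summed per library and barcode class and divided by the total off the Rpl and Rps genes. Ratios have exact conditional Poisson intervals and shares Clopper-Pearson intervals at 95%, with scipy 1.17.1, numpy 2.4.6 and pandas 2.3.3. Against B barcodes, genes needed 20 UMIs over both sides in each library, and 2-fold in both libraries to be past the fold. Between ALLO and SYN, genes needed 20 UMIs over both libraries together, and the ratio of the libraries had to be past 2-fold. Genes with 0 UMIs in droplets (471) enter medians as lowest. Lengths are from GENCODE M21 (GRCm38), matched by ID for 32235 of 32285 features. The ratio steps, but not the list step, were tested on simulated counts.

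Named genes are the 15 highest and lowest against B barcodes and the 8 highest and lowest between libraries (at least 50 UMIs) by the interval bound nearest to 1, without immunoglobulin, T cell receptor, mitochondrial, ribosomal and clone-named genes, and the 4 members of each list with the most UMIs. Other list genes and the intronic transcripts were chosen after their values were seen. No doublets were removed: Scrublet (scanpy 1.11.5) called 0 ALLO and 2 SYN barcodes by its own threshold, too few to have worked. Not every gene that these rules select is reported here.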

Additional observations from a re-analysis of the deposited data

Results flagged for a closer look

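The interferon-induced list, 13 genes, lay on opposite sides of 0 in the libraries when members were set against B barcodes. Its median log2 ratio was -0.12 in ALLO and 0.38 in SYN, and the difference was not tested. In clean droplets the medians were -0.01 and -2.00 over the same 13 genes, several with no UMI in SYN droplets. Of its genes, Stat2 had 78 and 75 UMIs in members and log2 ratios of 0.46 and 0.89, and Isg15 had 12 and 7 UMIs. Rsad2, with 29 UMIs in each library, was at 3.23 and 4.82 among all members and at -0.06 in ALLO clean droplets.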

How the results depend on the processing

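No paired analysis was possible because each group has 1 sample, and for that reason leaving out a replicate was not possible either. The settings without the mitochondrial limit, with clean droplets, with a Scrublet score limit of 0.25 and all settings of the T comparison were chosen after seeing the data. Of the main counts, shares and list counts, 95 values under other settings stayed within 1.5 times or the interval and 31 moved. The 95 include the setting without barcodes that Scrublet called doublets. It removed no member and no comparison B barcode, so its values could not move. The share of members in ALLO, 10.8%, was 9.67% with a 5% ribosomal limit, 4.11% with 1000 UMIs, 4.58% with 2 Cd79 UMIs, 14.3% with no mitochondrial limit and 4.94% with clean droplets. The SYN share, 6.05%, was 5.00%, 2.73%, 2.63%, 7.60% and 2.66%, and 6.62% with a 10% limit. The 1392 higher and 1436 lower genes (49.2% higher) became 2659 and 876 (75.2%) when scaled to all UMIs, which put the median gene at 0.53 and 0.49 (log2) in place of 0.13 and 0.11, and 1090 and 1687 (39.3%) after centring on the median gene. With B barcodes of matched depth, 247 in ALLO and 2404 in SYN, they were 872 and 855, and at 1.5-fold 2764 and 2268. The higher genes were 851 with 1000 UMIs and 781 with 2 Cd79 UMIs. For ALLO over SYN, 254 higher and 527 lower genes became 484 and 853 at a minimum of 10 UMIs, 105 and 213 at 50, and 823 and 1285 at 1.5-fold. The lower genes were 314 with 2 Cd79 UMIs, 258 without other cells' markers, 287 after thinning and 158 in clean droplets. The T counts at 1.5-fold were 1844 and 1489. Jchain against B barcodes reversed to -1.34 without other cells' markers and -0.80 in clean droplets. In ALLO over SYN, Gzma reversed to -0.033 (10% limit), -0.31 and -0.64 (2 UMIs in each library), and Mzb1 to -1.02, -0.62 (thinned) and -1.04. Jchain and Gzma are among the markers by which both marker-filtered settings remove barcodes, so their fall there is set by the selection. Mzb1 is not among those markers, and the cause of the other reversals was not tested. In the library nearer 0, list medians ranged over all settings from 1.44 to 2.13 for nuclear long non-coding RNAs, -2.55 to -2.02 for translation factors, -2.75 to -1.60 for the nuclear respiratory chain, 0.48 to 1.37 for mitochondrial genes and 0.34 to 1.22 for immediate-early genes in ALLO over SYN. Depth limits single genes: a member holds under 900 UMIs at the median.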

Other observations

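Immunoglobulin variable segments, which encode the antigen-binding part of the B cell receptor, had low ratios in members. Of 192 segments compared, 84 were past 2-fold lower in members and 2 higher, with medians of -2.15 in ALLO and -2.40 in SYN. Their median annotated length of 359 bases covers the segment alone and not the whole immunoglobulin mRNA. In clean droplets 58 were lower and 1 higher, with medians of -2.24 and -2.16. Ighd, whose transcript continues through Ighm, was at -0.60 and -0.47 among all members and at -0.05 and 0.16 in clean droplets.

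Low-ribosomal B droplets continued past the mitochondrial limit, with 335 more in ALLO and 192 more in SYN. Those at 10 to 12% mitochondrial UMIs had median Malat1 shares of 4.38% and 4.90% and median ribosomal shares of 2.29% and 2.64%, next to 4.53% and 4.83%, and 2.72% and 2.70%, at 8 to 10%.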
